A study of Mus musculus with 28 samples.

Results

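Cytosolic ribosomal protein genes encode the proteins that, with ribosomal RNA, build the large and small subunits of the ribosome in the cytoplasm. Their mRNAs are among the most abundant in most cells, begin with a C and a run of pyrimidines (the TOP motif), and are translated together under the control of the kinase mTOR. In macrophages, as in other cells, the demand for ribosomes follows growth and protein synthesis, and several ribosomal proteins also act off the ribosome, for example on the p53 inhibitor Mdm2. Genes were taken by symbol (Rpl or Rps followed by a digit, leaving out S6 kinases, pseudogenes and Rps19bp1) from probe sets with 1 symbol, which gave 58 genes of 19938, 35 with Rpl symbols (large subunit) and 23 with Rps symbols (small subunit). The rule uses symbols and no measured value, and each gene was read from its probe set with the highest mean signal.

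Messenger RNA was measured on 28 microarrays of resident mouse peritoneal macrophages, in 7 groups of 4 samples that the labels call independent. Cells were washed from the peritoneal cavity without thioglycollate, kept overnight in serum-free medium and rinsed to remove non-adherent cells, and 100 ng of RNA was amplified for each array. The uninjected groups were wild-type mice and ATF7 knockout mice, both in the C57BL/6 background; ATF7 is a transcription factor of the ATF2 family, and the labels give neither the construction of the knockout nor the age of these mice. The other 5 groups were wild-type mice injected intravenously with PBS (the vehicle), LPS (from E. coli O111:B4), PGN (not spelled out in the labels), IMQ (imiquimod) or BG (β-glucan). The labels put these samples at 3 weeks after injection, while the protocol gives 3 to 4 weeks, injection at 7 to 8 weeks of age and analysis at 10 to 12 weeks. No dose, cage, litter or scan date is given in the sources used here, so a batch shared by the 4 arrays of a group cannot be told apart from the group.

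Values are log2 of the deposited normalised signal, and a difference is a log2 difference of group means. Of 58 genes, 56 (33 large, 23 small) were above background, set at 6.32 on the log2 scale, in at least 4 arrays; Rpl3l, a muscle form, and Rpl39l, a testis form, were not. Of the 56, 50 are standard subunit proteins and 6 are relatives with similar names (Rpl7l1, Rpl10l, Rpl32l, Rps4l, Rps23rg1 and Rps27l). Symbols such as Rpl3, Rpl11 and Rps24 (20 in all) occur only on probe sets that list several genes and were not analysed here. The genome holds many processed copies of these genes, so a probe set may also read a near-identical copy. Of the 58 genes, 36 have several probe sets, up to 14. Of the 206 probe sets kept, 12 had values equal to those of another, so probe sets are not all separate measurements. No gene had probe sets called in opposite directions in any of the 6 comparisons with PBS or wild type.

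Arrays of 1 group correlated at 0.985 to 0.996. The probe set for Atf7 that fell furthest was at 7.08 ± 0.104 in the knockout and 9.97 ± 0.110 in wild type (SD, n = 4 each), a 7.40-fold difference (limma adjusted p = 1.75e-19), in the direction of the label. Of 19 macrophage markers 16 were measured, with a summed linear signal of 51185 to 52535 in knockout arrays and 52582 to 54689 in wild type, and 48352 to 49276 after BG against 51955 to 55636 after PBS. Of these markers, Adgre1, Csf1r and Lyz2 were between 12.20 and 13.34 in every group mean, but others differed between groups. Gata6 was at 10.48 in wild type and 8.97 in the knockout, and at 10.35 after PBS and 9.41 after BG. Timd4 was at 11.08 in wild type, 11.75 in the knockout, 10.31 after PBS and 10.04 after BG. Of 26 B cell markers 21 were measured, summing to 4649 to 6870 in the knockout and 6794 to 10624 in wild type, and 8312 to 8790 after BG against 8710 to 10647 after PBS. T cell markers (10 of 20 measured) summed to 1695 to 1811 in the knockout and 1617 to 1839 in wild type. In bulk samples such as these, fewer cells of a type and less RNA per cell cannot be told apart.

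Promoter sequence was available from RefSeq (build GRCm38.p6) for 47 of the 58 genes. The windows of 5 of the genes on which the results turn are shown because 3 of them (Rps12, Rpl26 and Rpl24) rose and 2 (Rpl38 and Rpl41) fell after BG. Each holds the 60 bases before and the first 20 bases after the annotated transcription start, read 5′ to 3′. Capitals mark a C followed by at least 4 pyrimidines within 10 bases of the start, as in a TOP motif, and the sequence CCGGAAG, a core site of ETS-family factors, on either strand.
Rps12: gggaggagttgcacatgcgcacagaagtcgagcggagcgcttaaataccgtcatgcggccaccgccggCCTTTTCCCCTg
Rpl26: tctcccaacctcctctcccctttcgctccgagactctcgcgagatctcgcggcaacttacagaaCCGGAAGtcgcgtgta
Rpl24: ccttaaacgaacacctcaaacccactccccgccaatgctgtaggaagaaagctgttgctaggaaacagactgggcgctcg
Rpl38: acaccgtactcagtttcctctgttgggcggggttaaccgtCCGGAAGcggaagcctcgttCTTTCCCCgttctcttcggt
Rpl41: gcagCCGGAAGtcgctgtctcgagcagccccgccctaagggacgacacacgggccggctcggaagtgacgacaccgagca
They lie at chr10:23787190-23787269 (minus strand), chr11:68901506-68901585 (plus), chr16:55966215-55966294 (plus), chr11:114668520-114668599 (plus) and chr10:128549149-128549228 (minus), in that order.

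Over the 56 windows of these genes (300 bases each, 250 before and 50 after the start, some genes with several starts), CCGGAAG on either strand was in 18 (32.1%), against 8.86% of 32851 windows of all genes. A pyrimidine tract beginning with C exactly at the start was in 9 windows (16.1%, against 2.51%), and within 10 bases of the start in 30 (53.6%, against 30.7%). The box GGGCGG was in 53.6% (against 35.7%), TATAAA in 8.93% (against 13.6%) and AAGATGG in 8.93% (against 6.34%), both strands searched. Among genes with a window, CCGGAAG was in 9 of the 22 that rose after BG, 3 of the 8 that fell and 4 of the 15 with no call. For the knockout it was in 14 of the 34 that fell and in 1 of the 10 with no call. These matches describe the annotated windows and were not tested against the measurements.

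In macrophages without ATF7, most ribosomal protein genes were lower than in wild type, by small amounts. Of the 56 genes 43 were lower and 1 was higher (limma, Benjamini-Hochberg adjusted p under 0.05 over 13512 genes), where 10.7% of all genes were lower and 17.7% higher. The median difference was -0.24, against 0.01 over all genes tested. In 44 of the 56 genes the 4 knockout arrays all lay below the 4 wild-type arrays (8.51% of all genes). Small and large subunit genes shared the direction: 19 of 23 small subunit genes fell (median -0.27) and 24 of 33 large subunit genes fell (median -0.21).

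The largest fall was that of Rps12, a protein of the small subunit's beak. Its signal was 10.88, 10.75, 10.84 and 10.76 in the wild-type arrays and 10.36, 10.42, 10.36 and 10.17 in the knockout arrays. The groups did not overlap, and the knockout was 1.39-fold lower (-0.48, SE 0.064, limma adjusted p = 2.79e-06). All 14 probe sets of Rps12 were called lower, by 0.45 to 0.50 on the log2 scale.

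Rps28, a small subunit protein near the mRNA exit, was at 11.11, 11.07, 11.14 and 11.02 in wild type and at 10.68, 10.63, 10.70 and 10.53 in the knockout. The knockout was 1.37-fold lower with no overlap (-0.45, SE 0.056, limma adjusted p = 1.00e-06), and its 7 probe sets were all called. Rps19, the gene most often mutated in Diamond-Blackfan anaemia, was at 10.97, 10.95, 10.84 and 10.90 in wild type and at 10.42, 10.33, 10.68 and 10.44 in the knockout (-0.45, limma adjusted p = 1.96e-06). The third knockout array of Rps19 stood nearer to wild type than the other 3, without reaching it. Next in size were Rpl23a, which lines the exit of the peptide tunnel (-0.42), Rps29 (-0.42) and Rpl26, another protein at the tunnel exit (-0.40), all without overlap.

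Of 13 ribosomal proteins listed for roles off the ribosome, 11 were measured. In the knockout 86% of the 50 standard subunit genes and 10.7% of all genes fell, and so did all 11. They include the Mdm2-binding proteins Rpl5 (-0.36), Rpl23 (-0.30), Rps7 (-0.32) and Rpl26, and Rps3, also a DNA repair factor (-0.31). The smallest falls among the 11 were those of Rpl10, needed for subunit joining (-0.14), and Rps6, the substrate of the S6 kinases (-0.11). Of the 5 measured ribosomal genes that lie outside the symbol rule, 4 fell: Rpsa (-0.33), Fau (-0.26), Rplp1 (-0.26) and Rplp0 (-0.20). The stalk protein Rplp2 differed by -0.03 (limma adjusted p = 0.814), at means of 7.96 in the knockout and 7.99 in wild type.

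The 12 genes with no call were Rpl10l, Rpl12, Rpl14, Rpl22, Rpl24, Rpl30, Rpl32l, Rpl34, Rpl7l1, Rps15a, Rps23rg1 and Rps4l. Of these, 5 are relatives rather than standard subunit proteins; of the 50 standard genes, 43 fell and none rose. Paralogs and parents could be set side by side in 3 cases. Rpl7 fell (-0.33) and Rpl7l1, a nucleolar relative, differed by -0.02 (limma adjusted p = 0.818). Rpl10 fell and Rpl10l, whose level is at the background, differed by 0.13 (limma adjusted p = 0.366). Rps4x fell (-0.34) and Rps4l differed by 0.16 (limma adjusted p = 0.264), while its other probe set was called higher (0.27). No difference between a paralog and its parent was tested.

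Rps27l, a p53-induced relative of Rps27, was the 1 gene that was higher in the knockout on the probe set used; it is described here because its direction stood apart. It was at 10.27, 10.32, 10.37 and 10.46 in wild type and at 10.58, 10.83, 10.48 and 10.43 in the knockout, and the groups overlapped. The difference was 0.23 (SE 0.078, limma adjusted p = 0.0303). This call was lost without wild-type array 1 or 2 or knockout array 1 or 2, with adjusted p between 0.0569 and 0.189 by limma. Mdm2, whose product limits p53, rose in the knockout by 0.43 (limma adjusted p = 5.62e-05).

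**Figure D1:**
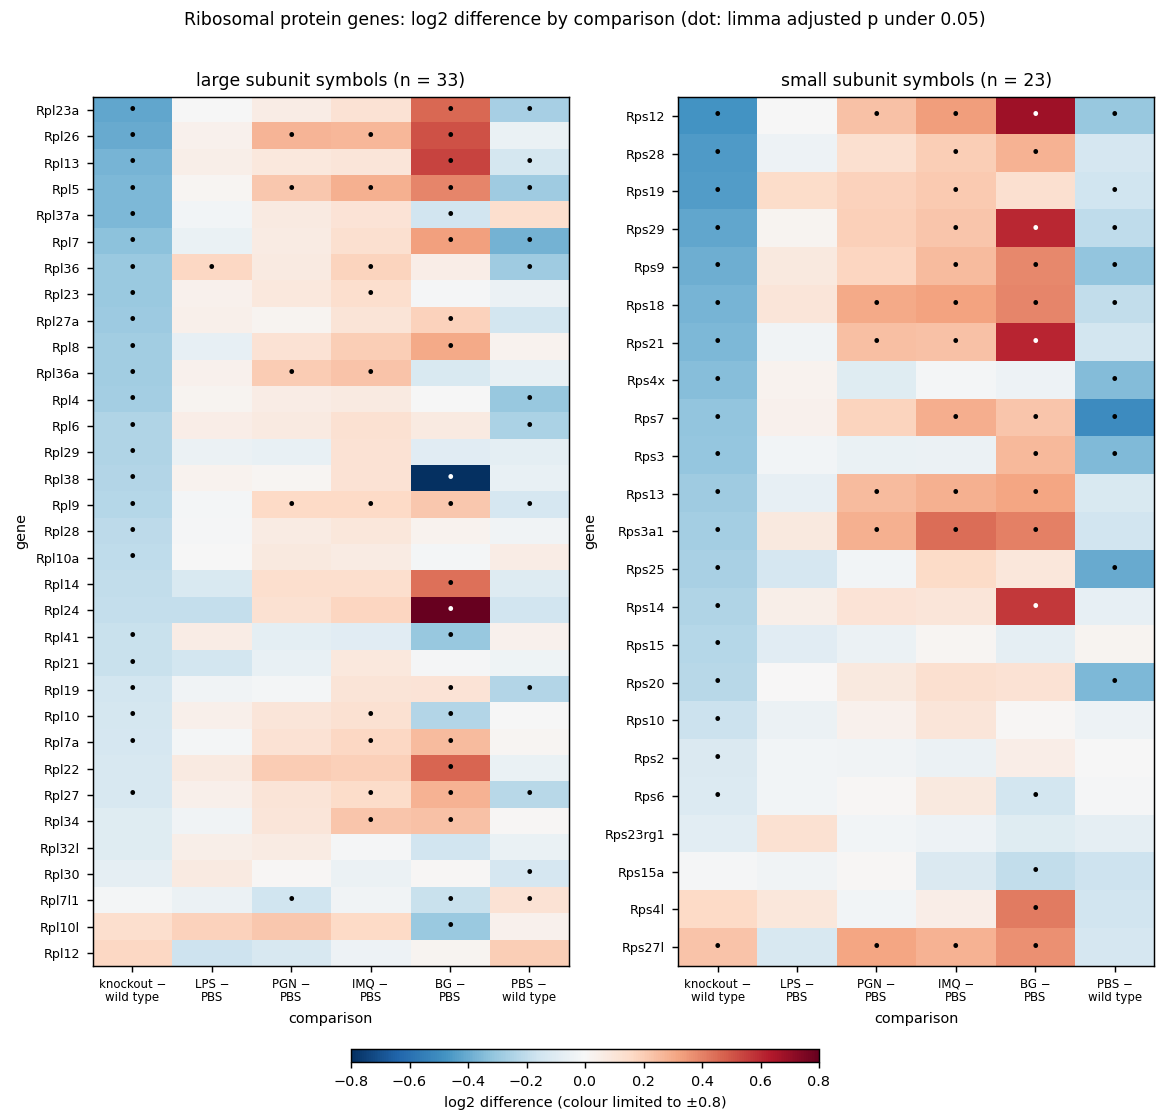
Log2 difference of each of the 56 ribosomal protein genes (rows, large subunit left, small subunit right, sorted by the knockout difference) in 6 comparisons (columns); a dot marks a limma adjusted p under 0.05 and the colour scale stops at 0.8 either way. The knockout column is blue for 43 called genes, the LPS column is nearly white with 1 dot, and the BG column mixes strong red (Rpl24, Rps12) with strong blue (Rpl38).

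Markers of B cells and of mast cells and eosinophils, and cell cycle genes, moved with the knockout difference. Of the 21 B cell markers 16 fell (median -0.76), among them Cd79b (-1.15). Of 33 cell cycle genes 23 fell and 1 rose (median -0.55), among them Ccna2 (-1.50). When the per-array mean of these B cell genes was added to the model, 25 ribosomal protein genes were lower and 0 were higher. The median was -0.23, and Rps12 (-0.47), Rps28 (-0.48) and Rps19 (-0.54) were called lower in that fit. The B cell mean was 7.40 to 7.94 in knockout arrays and 7.95 to 8.62 in wild-type arrays, without overlap. This fit therefore cannot tell B cell content from genotype. Of 14 mast cell and eosinophil markers 4 were measured and 2 fell (Il5ra, -1.18; Hdc, -0.56); their summed signal was 409 to 468 in knockout arrays and 599 to 725 in wild type, without overlap. The part of mast cell and eosinophil markers and of cell cycle genes in the result was not tested. That of B cells was not settled by the fit above. Macrophage markers moved both ways, with 4 of 16 higher (Cd163, 1.33 from a wild-type mean of 6.16, under the background; Fcgr1, 1.16) and 5 lower (Gata6, the resident peritoneal macrophage factor, -1.51).

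Other genes of protein synthesis are set against the 17.7% of all genes that were higher and the 10.7% that were lower in the knockout. Of 20 measured elongation factors and other TOP mRNAs 12 fell and 0 rose (median -0.19), including Eef1b2 (-0.41), Eif3f (-0.39) and Eif4b (-0.34). Ribosome biogenesis factors, which process ribosomal RNA and assemble subunits, rose more often than they fell: 30 of 60 rose and 0 fell (median 0.17), among them Bop1 (0.28) and Ebna1bp2 (0.29). Initiation factors rose in 8 of 24 and fell in 0, with Eif5a (0.31), Eif3b (0.26) and Eif6 (0.26) named by p. RNA polymerase I genes rose in 4 of 20 and fell in 0, a share of rises near that of all genes.

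Proteins of the mitochondrial ribosome are encoded in the nucleus. Of 77 measured, 28 rose and 1 fell in the knockout (median 0.12), among them Mrps18b (0.35) and Mrps5 (0.29). Small nucleolar RNAs, which guide rRNA modification and often lie in introns of ribosomal protein genes, fell in 13 of 41 and rose in 2. Among 20 regulators of TOP mRNA translation, 6 rose, including Rheb, the activator of mTOR (0.38), and 2 fell, including the translation inhibitor Pdcd4 (-0.56).

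**Figure D2:**
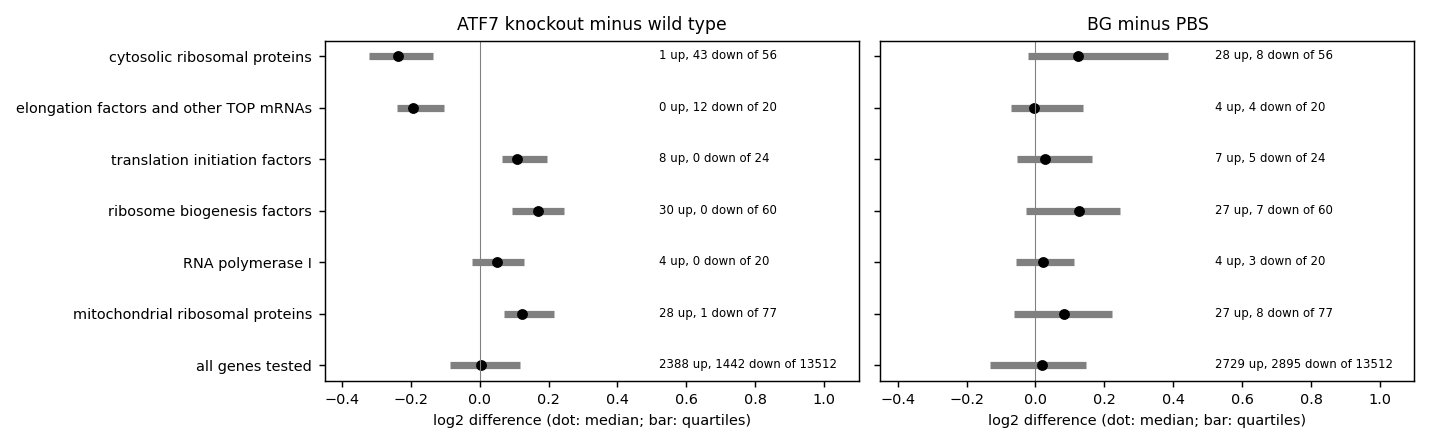
Median (dot) and quartiles (bar) of the log2 difference for lists of protein synthesis genes and for all genes tested, in the knockout against wild type (left) and BG against PBS (right), with the number of genes called at a limma adjusted p under 0.05 printed beside each. In the knockout the cytosolic ribosomal proteins (median -0.24) and TOP mRNAs (-0.19) sit left of 0 and biogenesis factors (0.17) and mitochondrial ribosomal proteins (0.12) right of it.

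After BG ribosomal protein genes rose more often than all genes did and fell less often. Relative to PBS, 28 of 56 rose and 8 fell (20.2% and 21.4% of all genes rose and fell), with a median of 0.12 against 0.02 over all genes. The groups did not overlap for 28 genes on the higher side (20.9% of all genes) and 7 on the lower side (19.8%). Differences ran from -0.80 to 1.16, and their SD over the 56 genes was 0.313, against 0.156 in the knockout and 0.0777 after LPS. Their quartiles after BG were -0.02 and 0.38, against -0.13 and 0.15 over all genes. Of all genes, 41.6% were called after BG, 28.3% in the knockout and 9.88% after LPS. Without PBS array 1 or 2, the lower count was 5 in place of 8.

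Rpl24, which forms a bridge between the subunits, showed the largest rise. It was at 9.95, 10.06, 9.78 and 9.78 after PBS and at 11.17, 10.95, 11.02 and 11.06 after BG. The BG arrays were 2.23-fold higher with no overlap (1.16, SE 0.079, limma adjusted p = 5.53e-11), and its 3 probe sets rose by 0.94 to 1.16. In the other 6 groups the mean of Rpl24 lay between 9.70 and 10.07, so the BG arrays stood alone. BG was also above LPS (1.35), PGN (1.04) and IMQ (0.98), each called by limma.

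Rpl38, known for its part in the translation of Hox mRNAs, showed the largest fall. It was at 12.32, 12.37, 12.25 and 12.20 after PBS and at 11.50, 11.54, 11.43 and 11.45 after BG. The BG arrays were 1.75-fold lower (-0.80, SE 0.037, limma adjusted p = 1.32e-14), and its 4 probe sets fell by 0.78 to 0.85 on the log2 scale. The other groups had means of 12.11 (knockout) to 12.40 (IMQ), and BG was below LPS (-0.83), PGN (-0.82) and IMQ (-0.92), each called by limma.

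The next falls were those of Rpl41, a very short peptide at the subunit interface (-0.31), Rpl10l (-0.29, at the background), Rpl10 (-0.23), Rpl7l1 (-0.18) and Rpl37a (-0.15). Rpl41 was at 12.38, 12.38, 12.26 and 12.26 after PBS and at 12.02, 11.92, 12.04 and 12.08 after BG, without overlap (SE 0.038, limma adjusted p = 4.86e-07). All 6 probe sets of Rpl10 were called lower. Rps6 (-0.15) and Rps15a (-0.19) made up the 8, and for Rps15a the groups overlapped.

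After Rpl24, the largest rises were those of Rps12 (0.68), Rps21 (0.61), Rps29 (0.60), Rps14 (0.56) and Rpl13 (0.54). Rps12 was at 10.60, 10.57, 10.43 and 10.41 after PBS and at 11.23, 11.15, 11.21 and 11.14 after BG, a 1.60-fold difference (SE 0.064, limma adjusted p = 7.49e-09), and its 14 probe sets rose by 0.52 to 0.96. Rps14, the small subunit gene lost in the 5q- syndrome, was at 10.98, 10.92, 10.81 and 10.82 after PBS and at 11.41, 11.39, 11.47 and 11.52 after BG. These groups did not overlap for either gene. Rps28 rose by 0.28 on the probe set used, but 4 of its 7 probe sets were not called.

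**Figure D3:**
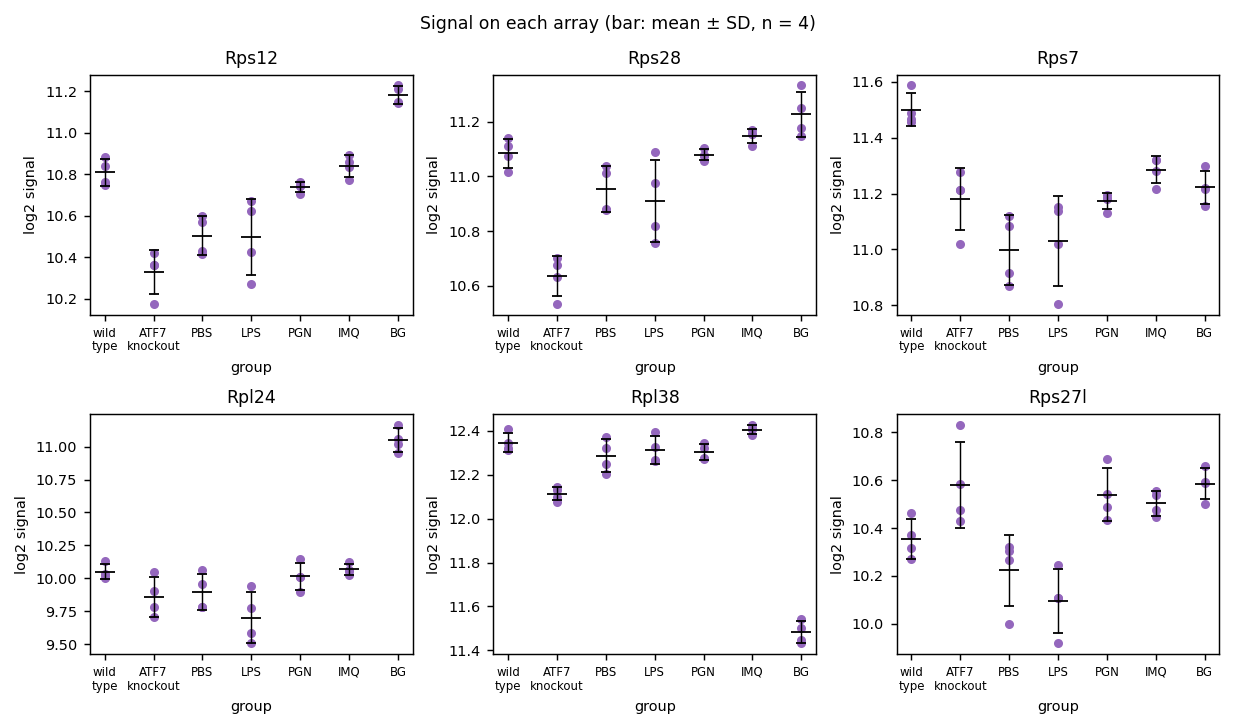
Log2 signal on each array (points) with the mean and SD of 4 arrays (bars) for 6 ribosomal protein genes in the 7 groups; each panel has its own vertical scale, which does not start at 0. The BG arrays of Rpl24 (10.95 to 11.17) lie above and those of Rpl38 (11.43 to 11.54) below every other array, whereas Rps12 and Rps28 have their lowest group mean in the knockout.

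Of the genes with roles off the ribosome, 4 of 11 rose after BG (Rpl26, 0.51; Rpl5, 0.39; Rps3, 0.26; Rps7, 0.22) and 3 fell (Rpl38, Rpl10 and Rps6). Of the 50 standard subunit genes 26 rose and 6 fell. Of the 5 ribosomal genes outside the symbol rule, Rplp1 (0.35), Rpsa (0.21), Fau (0.11) and Rplp0 (0.10) rose and Rplp2 fell (-0.21). Rplp1 and Rplp2 form dimers on the ribosomal stalk. The Rplp2 probe set had means of 7.48 after BG and 7.69 after PBS, and that of Rplp1 12.82 and 12.47. Background was set at 6.32, and how well the Rplp2 probe set reads its mRNA was not tested. The parent and relative pairs went different ways: Rps4l rose (0.42) and Rps4x differed by -0.04 (limma adjusted p = 0.492), while Rpl7 rose (0.33) and Rpl7l1 fell. Of all genes, 20.2% rose and 21.4% fell after BG. Biogenesis factors rose in 27 of 60 (45%) and fell in 7 (11.7%). Mitochondrial ribosomal proteins rose in 27 of 77 (35.1%) and fell in 8 (10.4%), and small nucleolar RNAs rose in 22 of 41 (53.7%) and fell in 4 (9.76%). TOP mRNAs rose in 4 of 20 (Btf3, 0.31) and fell in 4 (Eif3m, -0.56), shares near those of all genes. B cell markers fell in 6 of 21 and rose in 2, macrophage markers fell in 7 of 16 (Gata6, -0.93), and cell cycle genes fell in 15 of 33 and rose in 1. With B cell markers as a covariate 28 ribosomal protein genes were higher and 6 lower after BG. The B cell mean was 8.05 to 8.16 after BG and 8.23 to 8.59 after PBS, without overlap. This fit therefore cannot tell B cell content from treatment. The part of macrophage markers and cell cycle genes in the result was not tested.

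The knockout and BG comparisons use separate controls. Of the 43 genes lower in the knockout, 22 rose after BG (22 of its 28), 5 fell (Rpl10, Rpl37a, Rpl38, Rpl41 and Rps6) and 16 had no call. Over all 56 genes, 76.8% were lower in the knockout, and after BG 50% rose and 14.3% fell. These shares alone give an overlap near the one seen, and a gene-by-gene link between the effects was not tested. The difference between the effects was itself called for 43 of 56 genes: the knockout effect was below the BG effect in 40 and above it in 3 (11.2% and 18% of all genes). The 3 were Rpl38 (0.57, limma adjusted p = 1.54e-08), Rpl10l (0.43) and Rpl7l1 (0.16). For Rps27l, higher in both comparisons, the effects differed by -0.14 (limma adjusted p = 0.355).

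**Figure D4:**
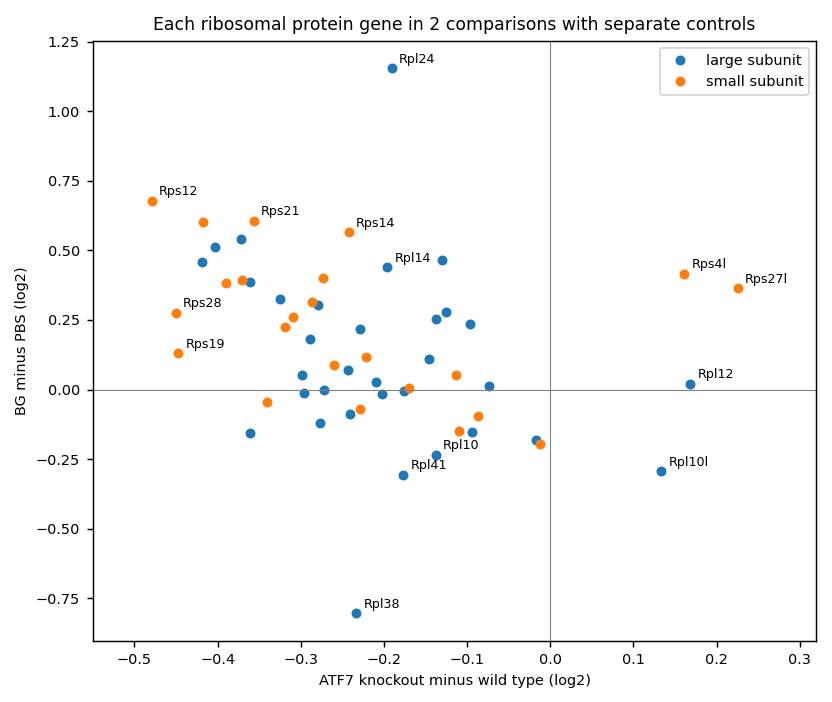
Each of the 56 ribosomal protein genes by its log2 difference in the knockout against wild type (horizontal axis) and after BG against PBS (vertical axis), with large subunit genes in blue and small subunit genes in orange. Of the 43 genes called lower in the knockout, 22 were called higher after BG and 5 lower, and Rpl24 and Rpl38 are at the vertical ends. Over all 56 genes, 50% were called higher after BG and 14.3% lower.

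After IMQ, a TLR7 ligand, ribosomal protein genes were somewhat higher than after PBS. Of 56 genes 21 rose and 0 fell (3.09% and 2.6% of all genes, 5.69% in either direction), with a median of 0.13 against 0.02 over all genes, and IMQ arrays lay above the PBS arrays without overlap for 30 genes (8.97% of all genes). Large subunit genes rose in 10 of 33 and small subunit genes in 11 of 23. The count depended on single arrays: it was 12 without PBS array 3, 10 without PBS array 4, 12 without IMQ array 1 and 13 without IMQ array 3.

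Rps3a1, which sits near the mRNA exit of the small subunit, showed the largest rise after IMQ. It was at 7.87, 8.09, 7.93 and 7.65 after PBS and at 8.41, 8.33, 8.39 and 8.18 after IMQ, without overlap (0.45, SE 0.082, limma adjusted p = 1.40e-03). Then came Rps12 (0.34), Rps18 (0.32), Rps7 (0.29), Rpl5 (0.28) and Rps13 (0.28). Of the 11 genes with roles off the ribosome, 6 rose (54.5%), against 40% of the standard subunit genes and 3.09% of all genes. Biogenesis factors rose in 2 of 60 and fell in 0 (Nop16, 0.36), mitochondrial ribosomal proteins rose in 4 of 77, and TOP mRNAs rose in 3 of 20 (Btf3, 0.20); the shares of biogenesis factors and mitochondrial ribosomal proteins are near the 3.09% of all genes that were higher. B cell markers rose in 2 of 21 (Cd22, 0.47).

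After PGN, 10 of 56 genes rose and 1 fell (2.09% and 1.81% of all genes, 3.91% in either direction), with a median of 0.08 against 0.02 over all genes. The groups did not overlap for 18 genes on the higher side (6.33% of all genes) and 2 on the lower side (4.84%). The largest rises without overlap were those of Rps27l (0.32), Rps18 (0.30), Rpl26 (0.27), Rps13 (0.25), Rps21 (0.24) and Rps12 (0.24). Rps18, at the head of the small subunit, was at 11.75, 11.76, 11.54 and 11.56 after PBS and at 12.00, 11.94, 11.96 and 11.91 after PGN (SE 0.056, limma adjusted p = 2.15e-03). The 1 fall was that of Rpl7l1 (-0.16, limma adjusted p = 0.0296), a call lost without PBS array 1, 2 or 3 or PGN array 1, 3 or 4. The count of 10 was 4 without PBS array 3, 3 without PBS array 4, 5 without PGN array 1 or 4, and 4 without PGN array 2 or 3.

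All 10 genes that rose after PGN also rose after IMQ, and both comparisons share the 4 PBS arrays. Between PGN and IMQ directly, limma called 0 of 56 ribosomal protein genes and 0 of 13512 genes; at an unadjusted p under 0.05 there were 8 ribosomal protein genes, all lower after PGN. No other tool was run.

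After LPS, 1 of 56 ribosomal protein genes was higher than after PBS and 0 were lower (4.36% and 5.52% of all genes, 9.88% in either direction), with a median of 0.00. For 0 genes did the groups lie apart in either direction (8.89% of all genes on the higher and 8.96% on the lower side). At an unadjusted p under 0.05 there were 2 higher and 3 lower. The gene called was Rpl36, a large subunit protein, at 11.41, 11.33, 11.28 and 11.28 after PBS and at 11.52, 11.48, 11.58 and 11.38 after LPS, with overlap (0.16, SE 0.042, limma adjusted p = 0.0232). The call was lost without PBS array 3 or 4 or LPS array 1 or 2. Rplp1 was 0.15 higher (limma adjusted p = 0.0440), its groups overlapped as well, and the call was lost without PBS array 2, 3 or 4 or LPS array 1, 2 or 3 and with the mean of its probe sets (0.08, limma adjusted p = 0.267). Biogenesis factors fell in 4 of 60, among them Ncl (-0.21), and mitochondrial ribosomal proteins in 3 of 77, shares near the 5.52% of all genes that were lower.

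LPS arrays could also be set against the other ligands. LPS was lower than IMQ for 24 of 56 genes (12.7% of all genes) and higher for 1 (6.45%), and lower than PGN for 12 (9.1%) and higher for 1 (2.98%); the 1 was Rpl41 in both. BG was higher than LPS for 29 genes and lower for 9 (18.2% and 16.7% of all genes). BG was higher than PGN for 22 and lower for 9 (12.9% and 18.9%), and higher than IMQ for 14 and lower for 11 (15.4% and 21.3%, 36.7% in either direction). The knockout effect was below the LPS effect for 32 genes and above it for 1, Rps27l (10.5% and 18.8% of all genes). Rpl24, which was not called in the knockout or after LPS, had effects of -0.19 in both.

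PBS-injected and uninjected wild-type mice, which differ by injection and for which the labels do not say whether age matched, were compared as the background of the injections. After PBS 21 of 56 genes were lower and 1 was higher (12.9% and 19.7% of all genes), with a median of -0.13 against 0.02 over all genes, and the groups did not overlap for 20 genes on the lower side (8.75%) and 1 on the higher side (14.1%). Rps7, which binds Mdm2, fell most, from 11.49, 11.47, 11.59 and 11.46 in uninjected to 11.08, 11.12, 10.87 and 10.91 in PBS-injected mice (-0.50, SE 0.064, limma adjusted p = 6.08e-06). Rps25, used by viral internal ribosome entry sites, followed (-0.41), then Rpl7 (-0.38), Rps20 (-0.36), Rps3 (-0.35) and Rps4x (-0.35). The 1 higher gene was Rpl7l1 (0.12, limma adjusted p = 0.0355), whose groups overlapped and whose call was lost in 9 of the alternative fits. Mitochondrial ribosomal proteins rose in 26 of 77 and fell in 3, and small nucleolar RNAs rose in 19 of 41 and fell in 1. Biogenesis factors rose in 12 of 60 and fell in 4, a share of rises near the 19.7% of all genes. T cell markers fell in 5 of 10 and rose in 1, mesothelial and fibroblast markers fell in 6 of 11 and rose in 1, and their part in the result was not tested. This comparison shares wild-type arrays with the knockout comparison and PBS arrays with the ligand comparisons.

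The mean over the 56 genes was 10.72 ± 0.0374 in wild type, 10.51 ± 0.0443 in the knockout, 10.60 ± 0.0661 after PBS, 10.60 ± 0.0903 after LPS, 10.68 ± 0.0193 after PGN, 10.73 ± 0.00189 after IMQ and 10.76 ± 0.0232 after BG (SD, n = 4 each). The knockout arrays (10.44 to 10.53) lay below the wild-type arrays (10.69 to 10.76). PBS arrays fell into a higher pair (10.66 and 10.65) and a lower pair (10.54 and 10.54), and LPS arrays spanned 10.49 to 10.67, whereas the 4 IMQ arrays lay between 10.72 and 10.73. The knockout was the lowest of the 7 groups for 30 of the 56 genes and the highest for 0. BG was the highest for 25 and the lowest for 10, and IMQ and wild type were the highest for 13 and 12.

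Large and small subunit genes were compared by the difference of their means within each array; a probe set's level has no common scale with another's, so only changes of this difference between groups are read. It was 0.0221 ± 0.0150 in wild type and 0.0580 ± 0.0192 in the knockout, 0.122 ± 0.0177 after PBS, 0.118 ± 0.0367 after LPS, 0.0883 ± 0.0106 after PGN, 0.0903 ± 0.00908 after IMQ and 0.00208 ± 0.00834 after BG (SD, n = 4 each). The 4 BG arrays (-0.00907 to 0.0111) lay below every PBS array (0.106 to 0.148). They overlapped the uninjected wild-type arrays (0.00318 to 0.0397), and the means furthest from wild type were those of PBS and LPS. Relative to PBS, small subunit genes rose more after BG. Their median difference was 0.26, with 13 of 23 higher and 2 lower. That of large subunit genes was 0.05, with 15 of 33 higher and 6 lower. Over the 50 standard genes alone the medians were 0.24 and 0.09. In PBS against wild type the small subunit median was also the further from 0 (-0.15 against -0.06), and in the knockout the medians differed by 0.06, a value that was 0.04 without wild-type array 1 or knockout array 3. No test over the subunit means was made, since the genes share arrays.

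**Figure D5:**
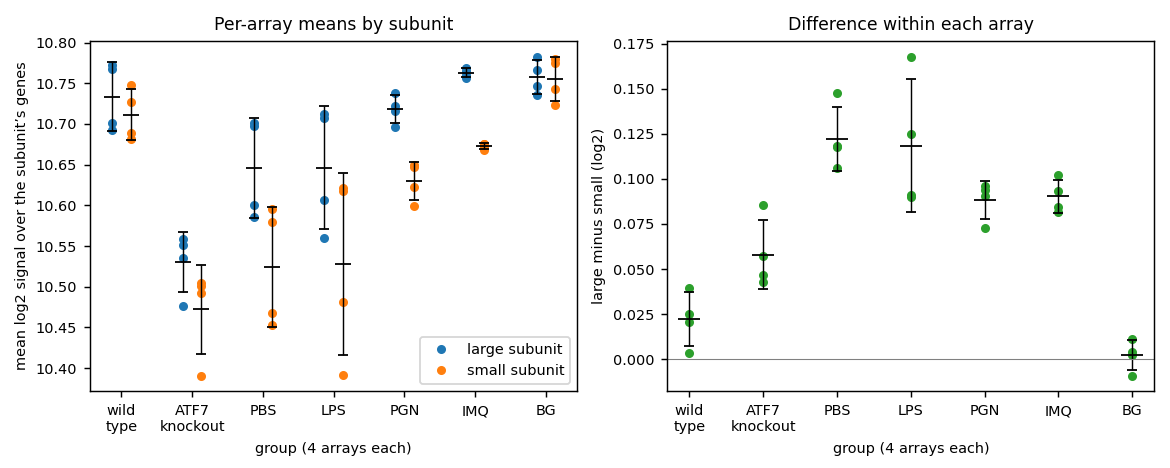
Left, mean log2 signal over the 33 large (blue) and 23 small (orange) subunit genes on each array; right, the difference of the means within each array; points are arrays and bars the mean and SD of 4 arrays, and the vertical axis of the left panel does not start at 0. The difference is 0.0221 in wild type, 0.122 after PBS and 0.00208 after BG, and the small subunit means of the LPS arrays spread from 10.39 to 10.62.

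Within groups, too, the genes moved together from array to array. After group means were removed, each of the 56 genes was correlated across 28 arrays with the mean over the remaining ribosomal protein genes. The median correlation was 0.678, and 42 of the 56 were above 0.5. Other genes were correlated with the mean over the 56, and their median was -0.00815. All genes share the arrays' normalisation. The genes most like the mean were Rps12 (0.916), Rps18 (0.891), Rps28 (0.889), Rps13 (0.885) and Rps7 (0.880). The least like it were Rpl12 (-0.389), Rps23rg1 (-0.254), Rps27l (0.0226), Rpl7l1 (0.141) and Rpl14 (0.259). Of genes outside the family, Nfam1 (0.834), Fn1 (0.832), Pts (0.832), Mir16-1 (0.806) and Tmem38b (0.80) had the highest correlations, which are given as a description.

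Across the 7 groups, an F test by limma called 53 of the 56 genes as different somewhere (74.3% of all genes). The 3 without a call were Rpl12, Rpl32l and Rps23rg1. Rpl12, a standard protein at the base of the stalk, had group means from 7.26 to 7.48.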

How the data were processed

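Whole-transcript Affymetrix arrays were read for 28 samples in 7 groups of 4. The authors deposited 1 intensity per probe set on a linear scale, processed with Affymetrix Expression Console and RMA per the submitters' processing notes; no scanner files were used here. Log2 of these intensities was analysed. Of 35556 probe sets, 21789 carry 1 symbol, 1621 several and 12146 none in the platform annotation. Probe sets above 80.0 on the linear scale (the 95th percentile of the means of 1210 odorant and vomeronasal receptor probe sets) in at least 4 arrays were kept, 14800 in all, and the probe set with the highest mean stood for a gene, giving 13512 genes.

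One limma model (version 3.58.1, R 4.3.3, intensity trend) was fitted to all arrays with a mean per group, and p-values were adjusted by Benjamini-Hochberg over all genes; a gene was called at an adjusted p under 0.05. Nothing in the labels says that same-numbered samples come from 1 mouse. The p-values rest on the spread between samples within groups, pooled over all 7 groups, and not on that of the groups compared alone. The number of arrays limits the precision. The members and the gene lists were chosen with earlier results of these data known. The text names, per comparison, the 6 largest falls and 6 largest rises among genes called without overlap of the groups, the relatives with their parents, the genes with roles off the ribosome, the related genes outside the symbol rule, up to 3 genes with the smallest p from each other list, Atf7, and the genes most and least like the mean; Rps27l, Rps15a, Rpl7l1, Rpl36 and others that make up counts of 5 or fewer, and genes without a call, were named after their values were seen. Promoter windows came from RefSeq (GRCm38.p6), and figures were drawn with matplotlib 3.10.9. Alternatives were a different floor, median centring, renewed quantile normalisation, no trend, array weights, only the groups compared, the mean of a gene's probe sets, a replicate block, B cell markers as a covariate, and leaving out each array.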

Additional observations from a re-analysis of the deposited data

Results flagged for a closer look

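In groups of 4, 1 array was marked where its gap to the nearest other array took up most of the group's range; of 203 groups examined 5 were marked, and chance marks about 1 in 20. Rpl10l was at 6.23 on PGN array 2 and at 6.38 to 6.41 on the other 3, all near the background. Rpl5 was at 11.50 on IMQ array 1 and at 11.55 to 11.56 on the others. Rps27l was at 10.00 on PBS array 1 and at 10.27 to 10.32 on the others. Rps4x was at 11.33 on PBS array 1 and at 11.14 to 11.17 on the others. The mean of the small subunit genes was 10.39 on knockout array 4 and 10.49 to 10.51 on the other knockout arrays.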

How the results depend on the processing

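None of the values of named genes reversed direction, out of 1489 under other settings (112 lost their call) and 1192 with 1 array left out (165 lost their call). With B cell markers as a covariate 25 genes were lower and 0 higher in the knockout; the higher count was also 0 after quantile normalisation, with array weights and with only the groups compared. The LPS higher count was 2 without a floor, after centring and with array weights, and 0 with only the groups compared. The PBS against wild type higher count was 0 after centring, after quantile normalisation, with array weights and with only the groups compared, and 3 with the mean of probe sets. The PGN higher count was 17 with array weights and 5 with only the groups compared, where the lower count was 0. After quantile normalisation the median was 0.19 for BG and -0.20 for PBS against wild type. With the mean of probe sets the large minus small median after BG was -0.15. The cause of these shifts was not tested. With 1 array left out, counts ranged from 42 to 44 lower and 0 to 2 higher in the knockout, 16 to 24 lower and 0 to 1 higher in PBS against wild type, 3 to 11 higher and 0 to 1 lower after PGN, 10 to 21 higher after IMQ, 25 to 30 higher and 5 to 10 lower after BG, and 0 to 3 higher and 0 to 1 lower after LPS.

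Correlations of the deviations of same-numbered arrays were -0.35 to 0.10 for knockout and wild type, -0.20 to 0.45 for LPS and PBS, 0.05 to 0.26 for PGN and PBS, -0.24 to 0.07 for IMQ and PBS, -0.02 to 0.17 for BG and PBS and -0.21 to 0.24 for PBS and wild type. Over all pairs of groups they ran from -0.52 to 0.48 for the same number and from -0.47 to 0.56 for different numbers. In no comparison was every pair above 0.1, so the numbers were not taken to pair samples. With the replicate block, 43 genes were lower and 1 higher in the knockout, 1 lower and 1 higher after LPS, 11 higher and 1 lower after PGN, 22 higher after IMQ, 28 higher and 10 lower after BG, and 24 lower and 2 higher in PBS against wild type.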
